A study of Mus musculus with 6 samples.

Results

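The 10 genes described here make and handle the fatty acids that the liver builds from sugar, a route called de novo lipogenesis. They were chosen by name, from textbook knowledge of the route and with earlier results of these data known. The 10 are *Slc25a1*, *Acly*, *Acss2*, *Acaca*, *Acacb*, *Fasn*, *Elovl6*, *Scd1*, *Thrsp* and *Mid1ip1*. All 10 were present among the 56691 genes of the deposited table, and all 10 passed the filter that left 10866 genes for testing, a mean of at least 1 FPKM (the read count scaled by exonic length and by the library total). The study asked what the liver protein ChREBP does in pregnant mice that eat a high-fructose diet (HFrD). Poly(A) RNA of whole liver was sequenced in 3 KPF samples (replicates 1, 2 and 3) and 3 WPF samples (replicates 2, 3 and 4).

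KPF dams were hChrebp-KO mice, in which both *Chrebp* alleles are floxed around exon 2 and a heterozygous Alb-Cre transgene is present. Because the albumin promoter drives Cre in hepatocytes, the other cells of the liver keep the gene. WPF dams carry the label WT, whereas the methods describe them as Chrebp flox/flox mice without Cre. The floxed alleles, the pregnancy, the Chrebp flox/flox sires and the HFrD during pregnancy were thus common to both groups. No group carried Alb-Cre without the floxed gene, so that effects of Cre itself and of the loss of ChREBP cannot be told apart. The age of the dams is not given in the sources used here.

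In de novo lipogenesis, citrate leaves the mitochondrion and is split into acetyl-CoA, which is carboxylated to malonyl-CoA. Fatty acid synthase then condenses malonyl-CoA units into palmitate, which can be lengthened and desaturated before it is built into triglyceride. In the liver the genes of the route are known to be switched on after a carbohydrate-rich meal by ChREBP (gene symbol *Mlxipl*), which senses sugar metabolites, and by SREBP-1c (gene symbol *Srebf1*), which acts under insulin.

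The sequences just before the RefSeq starts of the genes were read to see what they have in common. RefSeq promoters of build GRCm38.p6 were found for 9 of the 10 genes, and for each the 250 bases before that start were searched on both strands. The *Acaca* window (chr11:84195188-84195437) lies inside the span of its gene, so a motif missing there says nothing about the bases before the gene. Whether other RefSeq starts lie inside their genes was not checked. The short motif CCAAT, which is bound by the factor NF-Y, was found in 5 of the 9, compared with 33.8% of all 32851 promoters of the same length. These 5 windows are shown because the motif was the one that most of the searched genes had in common. Each runs 5′ to 3′ on the strand of the gene and ends at the base before the start, and the capitals mark CCAAT or its reverse complement ATTGG and, in *Slc25a1*, the E-box CACGTG. The *Fasn* window lies at chr11:120824548-120824797 (minus strand), the *Thrsp* window at chr7:97417551-97417800 (minus strand), the *Acss2* window at chr2:155517793-155518042 (plus strand), the *Acacb* window at chr5:114165268-114165517 (plus strand) and the *Slc25a1* window at chr16:17928220-17928469 (minus strand).
Fasn: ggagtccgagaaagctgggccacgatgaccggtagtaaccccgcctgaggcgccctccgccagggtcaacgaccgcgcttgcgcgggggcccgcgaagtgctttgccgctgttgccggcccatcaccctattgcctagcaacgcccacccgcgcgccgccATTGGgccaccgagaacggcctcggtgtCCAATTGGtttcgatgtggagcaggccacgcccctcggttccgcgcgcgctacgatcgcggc
Thrsp: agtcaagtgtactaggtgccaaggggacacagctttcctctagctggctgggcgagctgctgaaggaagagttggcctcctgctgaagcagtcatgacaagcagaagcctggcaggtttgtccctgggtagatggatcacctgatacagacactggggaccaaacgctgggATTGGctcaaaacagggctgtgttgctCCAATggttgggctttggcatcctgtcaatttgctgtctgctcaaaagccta
Acss2: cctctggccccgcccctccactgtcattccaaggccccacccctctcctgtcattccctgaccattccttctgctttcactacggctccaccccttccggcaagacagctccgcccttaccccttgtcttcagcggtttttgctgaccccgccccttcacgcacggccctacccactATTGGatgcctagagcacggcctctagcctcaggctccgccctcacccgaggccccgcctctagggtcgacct
Acacb: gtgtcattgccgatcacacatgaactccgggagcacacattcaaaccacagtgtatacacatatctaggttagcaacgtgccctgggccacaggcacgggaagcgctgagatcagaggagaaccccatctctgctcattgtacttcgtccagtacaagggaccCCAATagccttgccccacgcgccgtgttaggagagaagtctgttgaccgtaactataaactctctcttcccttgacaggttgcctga
Slc25a1: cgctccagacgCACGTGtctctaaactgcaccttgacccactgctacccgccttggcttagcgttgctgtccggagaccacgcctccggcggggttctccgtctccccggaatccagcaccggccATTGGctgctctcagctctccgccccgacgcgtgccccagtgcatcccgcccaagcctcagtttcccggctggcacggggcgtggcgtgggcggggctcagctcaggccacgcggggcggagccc

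In *Fasn* the motif occurred 3 times, from 90 to 86, from 62 to 58 and from 59 to 55 bases before the start, where the last 2 copies lie on opposite strands and overlap. In *Thrsp* it occurred from 79 to 75 and from 52 to 48 bases before the start. The GC box GGGCGG, the site of Sp1, was found in *Slc25a1*, *Acly*, *Acss2* and *Mid1ip1*, compared with 32.7% of all promoters. The E-box CACGTG was found in *Slc25a1* alone among the 9 windows and in 6.02% of all promoters. A strict carbohydrate response element (CACGNG, any 5 bases, CNCGNG) was found in 0 of the 9 windows and in 0.28% of all promoters. The sterol response element TCACNCCAC was likewise found in 0 of the 9 and in 1.05% of all promoters, and the LXR element (AGGTCA, any 4 bases, AGGTCA) in 0 of the 9 and in 0.0152%. These matches describe letters within the windows and were not measured as binding.

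The libraries held 10694496 to 11567941 counted reads in KPF and 12988865 to 14496630 in WPF, and every pair of libraries within a group differed by more than sampling noise (chi-square per gene from 48.1 to 147). *Mlxipl*, the targeted gene, was measured at 179.4, 699.6 and 848.7 CPM (the count scaled to library size with edgeR's TMM factors) in KPF 1, 2 and 3, compared with 961, 1260 and 879.1 CPM in WPF 2, 3 and 4. The 3 KPF livers were all below the 3 WPF livers, although KPF 3 and WPF 4 lay close together, and the log2 fold change was -0.84 (SE 0.53, adjusted p = 0.584 by edgeR's quasi-likelihood test). The counts cover the whole gene, so that the loss of a single exon is not visible in them. A gene was called when edgeR's quasi-likelihood test gave an unadjusted p under 0.05 and the change was at least 1.5-fold. Hepatocyte markers were high throughout, but their sum over 6 genes was lower in every KPF library, at 37160 to 44970 FPKM compared with 52390 to 72160 in WPF. Most of that sum was *Alb*, which overlapped between the groups in TMM-normalized CPM (90180 in KPF 3, 89430 in WPF 4). Of the 6 genes 0 were called. The 4 muscle markers summed to 1357 FPKM in KPF 2 and to between 3.06 and 4.5 in the other libraries, and all 4 were called higher in KPF. Without KPF 2, 9 of the 10 lipogenic genes were called lower, compared with 4.48% of all tested genes.

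All 10 lipogenic genes had a lower mean level in the KPF livers. By the rule above 8 genes were lower in KPF (*Acly*, *Acss2*, *Acaca*, *Acacb*, *Fasn*, *Elovl6*, *Scd1* and *Thrsp*), 0 were higher, and *Slc25a1* and *Mid1ip1* were not called. Over all genes tested, 3.98% were called lower and 5.83% higher, or 9.82% in either direction, and 8.6% were at least 1.5-fold lower whatever their p. Of all calls 59.4% were thus higher in KPF, a share that was 33.7% when scaled by library totals and 30.5% in limma on log2(FPKM + 1), while the 8 lipogenic genes were called lower in each case. The 8 called genes were each more than 4-fold lower and stood among the 50 lowest fold changes of the table, where *Scd1* ranked 4th, *Elovl6* 7th and *Fasn* 14th of 10866. The median log2 fold change of the 10 genes was -2.67, and that of all tested genes was 0.02.

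None of the calls passed the Benjamini-Hochberg adjustment over all genes in edgeR's quasi-likelihood test, where the adjusted p of the 8 called genes ranged from 0.415 to 0.43. In that test 0 genes of the whole table had an adjusted p under 0.05, while 1177 had an unadjusted p under 0.05. DESeq2 on the same counts gave 156 genes with an adjusted p under 0.05, among them 8 of the 10 lipogenic genes, and limma on log2(FPKM + 1) gave 0. The livers are bulk samples, in which fewer cells of a type and less RNA per cell cannot be told apart. The labels only number the samples, while the study describes its replicates as biological, and the p values measure the spread between these 6 libraries.

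**Figure D1:**
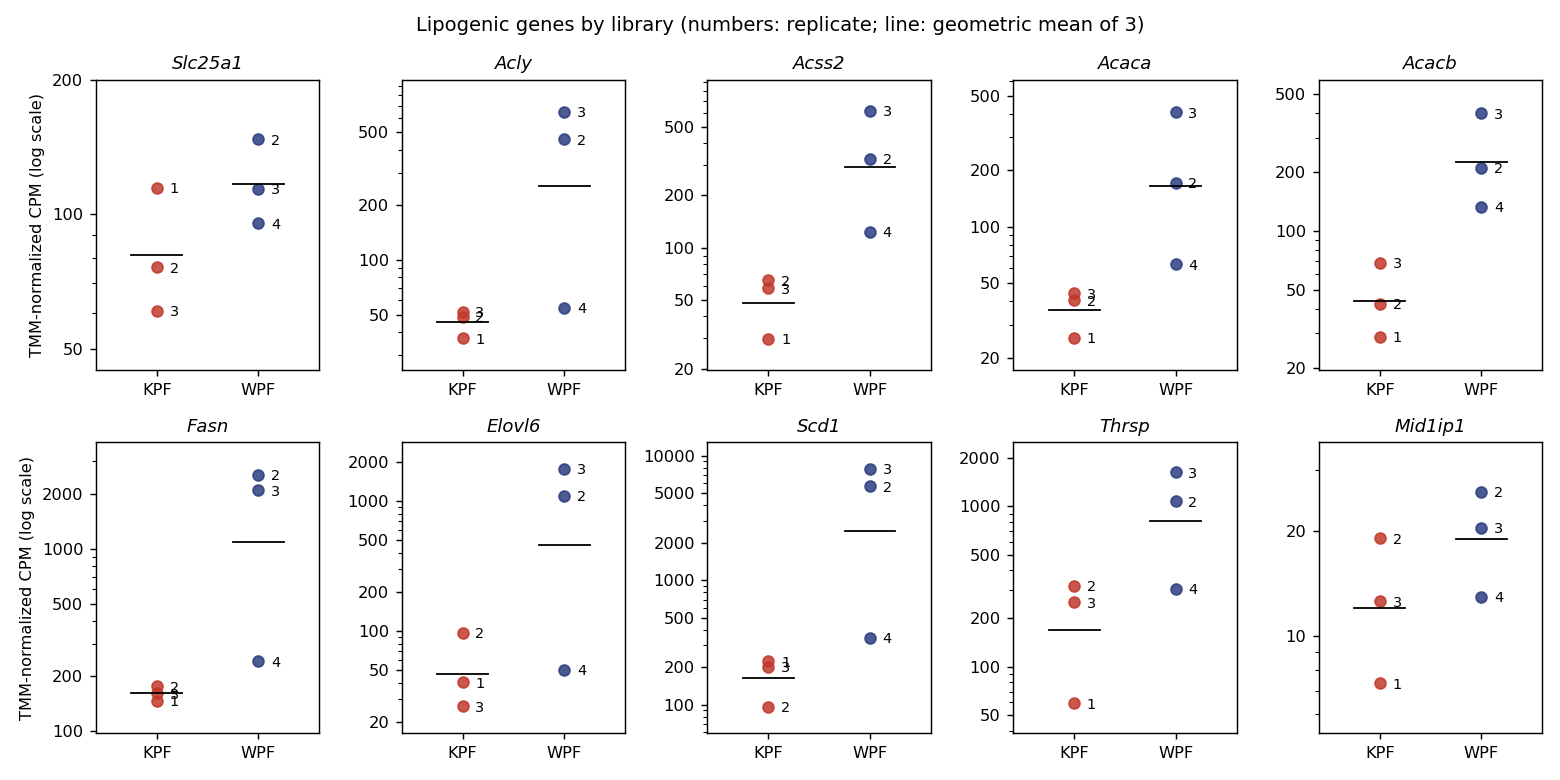
TMM-normalized CPM (log axis) of the 10 lipogenic genes in each library, with points numbered by replicate and a line at the geometric mean of the 3 libraries of a group. WPF 4 is the lowest WPF library for all 10 genes, and 6 genes have every KPF point below every WPF point.

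The WPF libraries were spread widely for these genes. WPF 4 was the lowest WPF library for all 10 genes, and for 9 of them, all but *Acacb*, it lay nearer to the KPF mean than to the mean of WPF 2 and WPF 3 on the log2 scale. WPF 3 was the highest of the 6 libraries for 7 genes and WPF 2 for the remaining 3. All 3 KPF libraries were below WPF 2 and WPF 3 for 9 genes, with *Slc25a1* as the exception, an arrangement that 15.8% of all tested genes had. They were below all 3 WPF libraries for 6 genes (*Acly*, *Acss2*, *Acaca*, *Acacb*, *Fasn* and *Scd1*). Of all tested genes, 8.15% were below in this way and 15.7% had no overlap in either direction. With 3 libraries in each group, a two-sided exact permutation test cannot give a p below 0.1, the value that these 6 genes reached.

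Leaving out WPF 4 left 8 genes called lower, compared with 4.92% of all tested genes, and the standard error of each of these 8 was smaller than with all libraries. *Acly*, *Fasn* and *Scd1* then had an adjusted p of 0.0322 each in edgeR's quasi-likelihood test, with log2 fold changes of -3.60 (SE 0.32), -3.85 (SE 0.30) and -5.30 (SE 0.48). They were 3 of 5 genes in the whole table that passed the adjustment in that setting. Without any other single library, 0 of the 10 genes and 0 genes of the whole table passed it. As WPF 4 was the lowest WPF library for all 10 genes, leaving it out raises their WPF mean by construction. In the fit without WPF 4, 2 libraries stood for WPF.

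**Figure D2:**
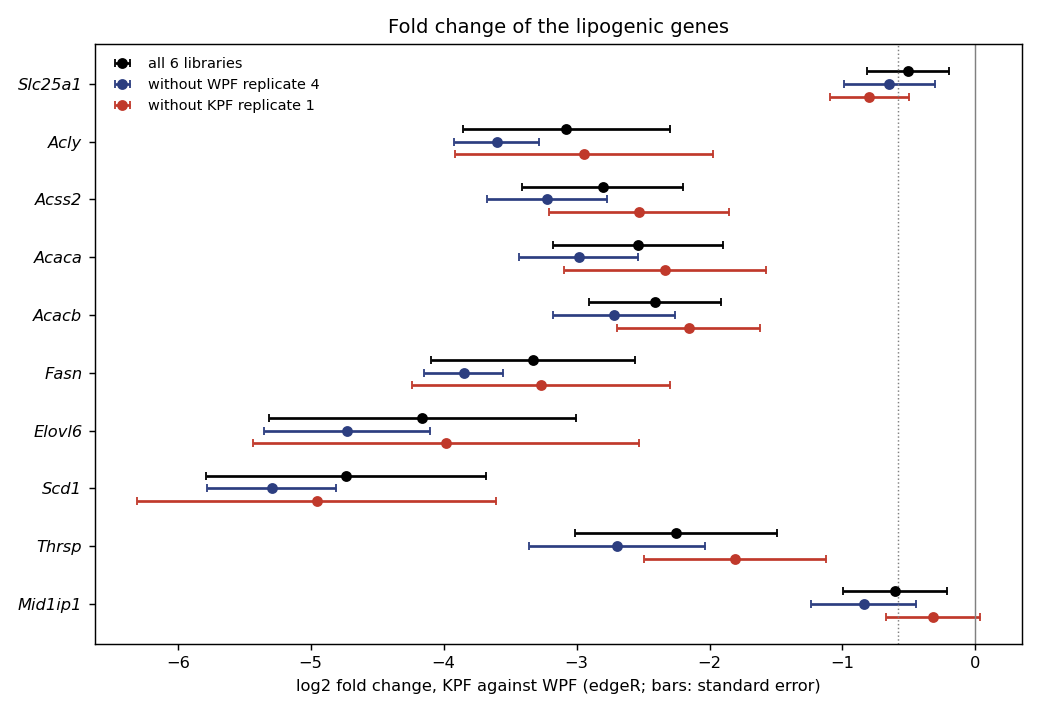
Log2 fold change of KPF against WPF from edgeR for the 10 lipogenic genes, with bars for the standard error, from all 6 libraries and without WPF replicate 4 or KPF replicate 1. The dotted line marks a 1.5-fold lower level, and every estimate lies below 0.

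The first genes of the route supply acetyl-CoA to the cytosol. *Slc25a1* (ENSMUSG00000003528, chromosome 16 from 17743087 to 17746083, minus strand, GRCm39) encodes the carrier that takes citrate out of the mitochondrion. It was counted at 114.6, 76.07 and 60.81 CPM in KPF 1, 2 and 3, compared with 147.3, 113.9 and 95.45 CPM in WPF 2, 3 and 4. Values of the other genes are given in the same order of libraries. KPF 1 lay above WPF 3 and WPF 4, so the groups overlapped. Its log2 fold change of -0.50 (SE 0.31, adjusted p = 0.577 by edgeR's quasi-likelihood test) was within the spread of the libraries (exact permutation p = 0.3). Without KPF 1 it was called, at a log2 fold change of -0.80 and an unadjusted p of 0.0319 in the same edgeR test.

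*Acly* (ENSMUSG00000020917, chromosome 11 from 100367179 to 100418826, minus strand) encodes ATP citrate lyase, which splits the exported citrate. It stood at 37.15, 48.56 and 51.88 CPM in the KPF livers, compared with 458.8, 647.5 and 54.58 CPM in WPF. The KPF libraries lay close together, WPF 2 and WPF 3 were far above them, and WPF 4 exceeded the highest KPF library by only 1.05-fold. The log2 fold change was -3.08 (SE 0.78, unadjusted p = 0.00473, adjusted p = 0.43, edgeR), or 8.44-fold lower in KPF, and it was -2.48 without WPF 3.

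*Acss2* (ENSMUSG00000027605, chromosome 2 from 155359868 to 155427644, plus strand) encodes acetyl-CoA synthetase, which makes acetyl-CoA from free acetate. Its levels were 29.63, 64.57 and 58.12 CPM in the KPF livers, compared with 325.5, 615.6 and 122.9 CPM in WPF. Here WPF 4 was set apart from KPF more clearly than for *Acly*, at 1.9-fold the highest KPF library. The log2 fold change of *Acss2* was -2.80 (SE 0.61, unadjusted p = 0.00191, adjusted p = 0.415, edgeR), and -2.14 without WPF 3. The ratio of *Acly* to *Acss2* in FPKM was 2.42, 1.45 and 1.72 in KPF and 2.71, 2.02 and 0.855 in WPF, and the groups overlapped (exact permutation p = 0.9).

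The next step, the carboxylation of acetyl-CoA to malonyl-CoA, is carried out by a pair of related enzymes. *Acaca* (ENSMUSG00000020532, chromosome 11 from 84020498 to 84292477, plus strand) encodes the cytosolic enzyme that feeds synthesis. It was counted at 25.62, 40.42 and 44.19 CPM in the KPF livers, compared with 171, 406.6 and 63.07 CPM in WPF. All KPF libraries were below all WPF libraries, and WPF 3 was 6.45 times WPF 4. The log2 fold change of *Acaca* was -2.54 (SE 0.64, unadjusted p = 0.00444, adjusted p = 0.43, edgeR), and -1.67 without WPF 3, still called.

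*Acacb* (ENSMUSG00000042010, chromosome 5 from 114284596 to 114388822, plus strand) encodes the enzyme at the outer mitochondrial membrane, whose malonyl-CoA restrains the entry of fatty acids into oxidation. Its levels were 28.77, 42.46 and 68.59 CPM in the KPF livers, compared with 210.6, 399.6 and 133 CPM in WPF. It had the smallest unadjusted p of the 10 genes in edgeR's test, 0.00146, with a log2 fold change of -2.41 (SE 0.50, adjusted p = 0.415). WPF 4 lay 1.94-fold above the highest KPF library, the widest gap between the groups among the 10 genes. The ratio of *Acaca* to *Acacb* in FPKM was 0.502, 0.537 and 0.363 in KPF and 0.458, 0.574 and 0.267 in WPF, so that *Acacb* was the more abundant transcript per length in all 6 livers, and the ratio overlapped between the groups (exact permutation p = 0.7).

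*Fasn* (ENSMUSG00000025153, chromosome 11 from 120696672 to 120715373, minus strand) encodes fatty acid synthase, which carries out the whole cycle that ends in palmitate. It stood at 146.8, 175.9 and 161.4 CPM in the KPF livers, compared with 2540, 2085 and 241.3 CPM in WPF. The KPF libraries differed from each other by only 1.2-fold, the narrowest range of the 10 genes in that group, whereas the WPF libraries spanned 10.5-fold. The log2 fold change was -3.33 (SE 0.77, unadjusted p = 0.00284, adjusted p = 0.415, edgeR), or 10.1-fold lower in KPF. By FPKM, *Fasn* ranked 167th and 171st of all genes in WPF 2 and WPF 3, 1270th in WPF 4 and between 1828th and 2094th in KPF.

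Elongation and desaturation follow the synthase, and the genes of these steps had the lowest fold changes of the route. *Elovl6* (ENSMUSG00000041220, chromosome 3 from 129326004 to 129432144, plus strand) encodes the elongase that turns palmitate into stearate. It was counted at 40.2, 97.21 and 26.32 CPM in the KPF livers, compared with 1107, 1771 and 50.36 CPM in WPF. WPF 4 was below KPF 2, so the groups overlapped, and the WPF libraries spanned 35.2-fold. The log2 fold change was -4.16 (SE 1.16, unadjusted p = 0.00758, adjusted p = 0.43, edgeR), and the exact permutation p over the 6 libraries was 0.2. Its log2 fold change was -4.88 without KPF 2 and -3.41 without WPF 3.

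*Scd1* (ENSMUSG00000037071, chromosome 19 from 44382894 to 44396318, minus strand) encodes the stearoyl-CoA desaturase that makes oleate and palmitoleate. Its levels were 223.2, 96.33 and 202.7 CPM in the KPF livers, compared with 5679, 7892 and 344.3 CPM in WPF. WPF 4 lay 1.54-fold above the highest KPF library, and WPF 2 and WPF 3 were a further order of magnitude higher. *Scd1* was 26.7-fold lower in KPF, a log2 fold change of -4.74 (SE 1.05, unadjusted p = 0.00225, adjusted p = 0.415, edgeR), which was -4.11 without WPF 3. It was the 26th most abundant gene by FPKM in WPF 3 and the 36th in WPF 2, but the 464th in WPF 4 and between the 683rd and the 1512th in KPF.

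*Scd1* took more reads than any other of the 10 genes in KPF 1 and in all 3 WPF libraries, whereas *Thrsp* took the most in KPF 2 and KPF 3. The 10 genes together took 0.07%, 0.0976% and 0.0844% of the counted reads in KPF 1, 2 and 3 and 1.05%, 1.69% and 0.168% in WPF 2, 3 and 4. Of these reads *Scd1* held 31.3%, 9.81% and 21.6% in KPF and 48.4%, 50.6% and 24.2% in WPF, so that WPF 4 fell within the KPF range in this respect. The FPKM ratio of *Scd1* to *Fasn* was 3.4, 1.23 and 2.81 in KPF and 5, 8.47 and 3.19 in WPF, with overlap of KPF 1 and WPF 4 (exact permutation p = 0.2).

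**Figure D3:**
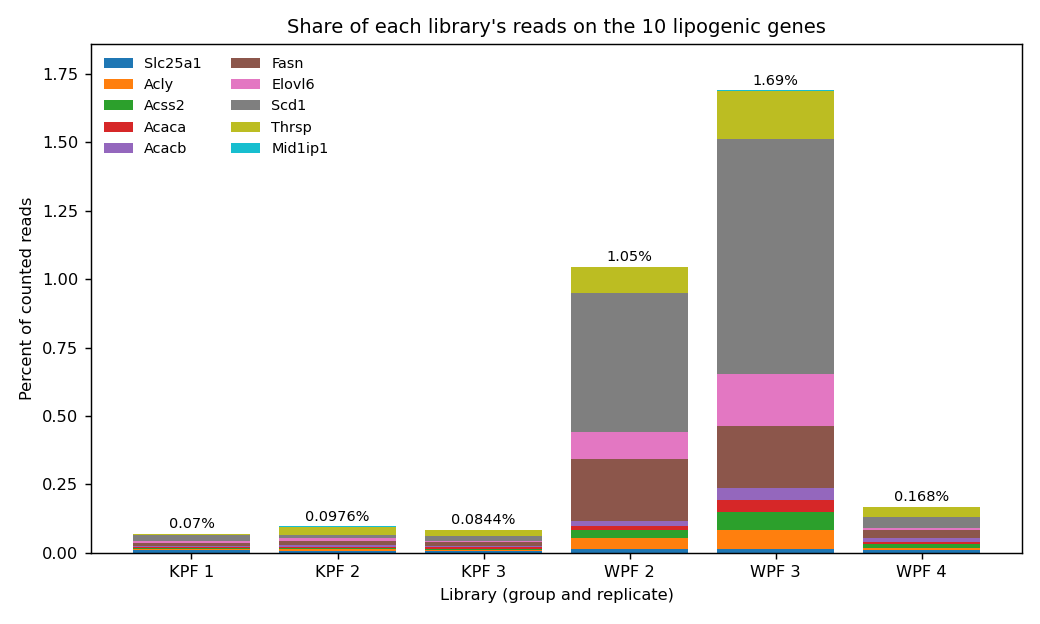
Share of each library's counted reads, in percent, that fell on the 10 lipogenic genes, stacked by gene. WPF 2 and WPF 3 reach 1.05% and 1.69%, WPF 4 reaches 0.168%, and the KPF libraries lie at 0.0976% or less.

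*Thrsp* and *Mid1ip1* encode a pair of related small proteins, Spot 14 and its partner, which promote lipogenesis; the *Mid1ip1* product is known to bind acetyl-CoA carboxylase and favour its polymerization. *Thrsp* (ENSMUSG00000035686, chromosome 7 from 97062145 to 97066937, minus strand) was counted at 59.35, 320.9 and 251.9 CPM in the KPF livers, compared with 1076, 1632 and 306.2 CPM in WPF. KPF 2 was slightly above WPF 4, so the groups overlapped (exact permutation p = 0.2), and KPF 1 was well below the other KPF libraries, so that the 3 KPF libraries spanned 5.41-fold. The log2 fold change of *Thrsp* was -2.25 (SE 0.76, unadjusted p = 0.0188, adjusted p = 0.43, edgeR). This call rested on WPF 3, without which the log2 fold change was -1.71 and the unadjusted p 0.0668 in the same test.

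*Mid1ip1* (ENSMUSG00000008035, chromosome X from 10581252 to 10585929, plus strand) had the fewest reads of the 10 genes, between 77 and 300 per library. It stood at 7.335, 19.11 and 12.59 CPM in the KPF livers, compared with 25.92, 20.44 and 13 CPM in WPF. KPF 2 exceeded WPF 4, and the log2 fold change of -0.60 (SE 0.39, adjusted p = 0.597, edgeR) was within the spread of the libraries (exact permutation p = 0.2). Without KPF 2 it was called, at -0.997, and without KPF 1 it was -0.32. The FPKM ratio of *Thrsp* to *Mid1ip1* was 7.87, 16.3 and 19.5 in KPF and 40.4, 77.6 and 22.9 in WPF, the only one of 8 ratios examined in which the groups did not overlap (exact permutation p = 0.1, 0.533 after Benjamini-Hochberg adjustment over the 8).

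The order of the genes by mean level was different in the 2 groups. On the FPKM scale, which corrects for length, the group means in WPF ran from *Scd1* (956) and *Thrsp* (471) over *Elovl6* (154), *Fasn* (146), *Acly* (74.2), *Slc25a1* (56.6), *Acss2* (36.2) and *Acacb* (26.9) to *Acaca* (13.0) and *Mid1ip1* (9.49). In KPF they ran from *Thrsp* (92.0), *Slc25a1* (37.4) and *Scd1* (33.9) over *Fasn* (14.1), *Acly* (8.30), *Elovl6* (8.28), *Mid1ip1* (5.88), *Acss2* (4.78) and *Acacb* (4.57) to *Acaca* (2.05). By these means *Slc25a1* was in the sixth place of the WPF order and in the second of the KPF order. The order did not set all libraries of the groups apart, as the WPF means rest mostly on WPF 2 and WPF 3. In WPF 4 *Thrsp* (165), *Scd1* (82.9) and *Slc25a1* (52.0 FPKM) stood highest, in the same order as in KPF 3 (104, 37.3 and 25.3 FPKM). All neighbours in the WPF order overlapped in their libraries, as *Scd1* at 82.9 to 1750 FPKM and *Thrsp* at 165 to 809 FPKM did. In the KPF order the neighbours overlapped except at 3 places, between *Scd1* (19.6 to 44.8 FPKM) and *Fasn* (13.2 to 16.0), between *Fasn* and *Acly* (6.91 to 9.15), and between *Acacb* (2.93 to 6.41) and *Acaca* (1.47 to 2.35).

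**Figure D4:**
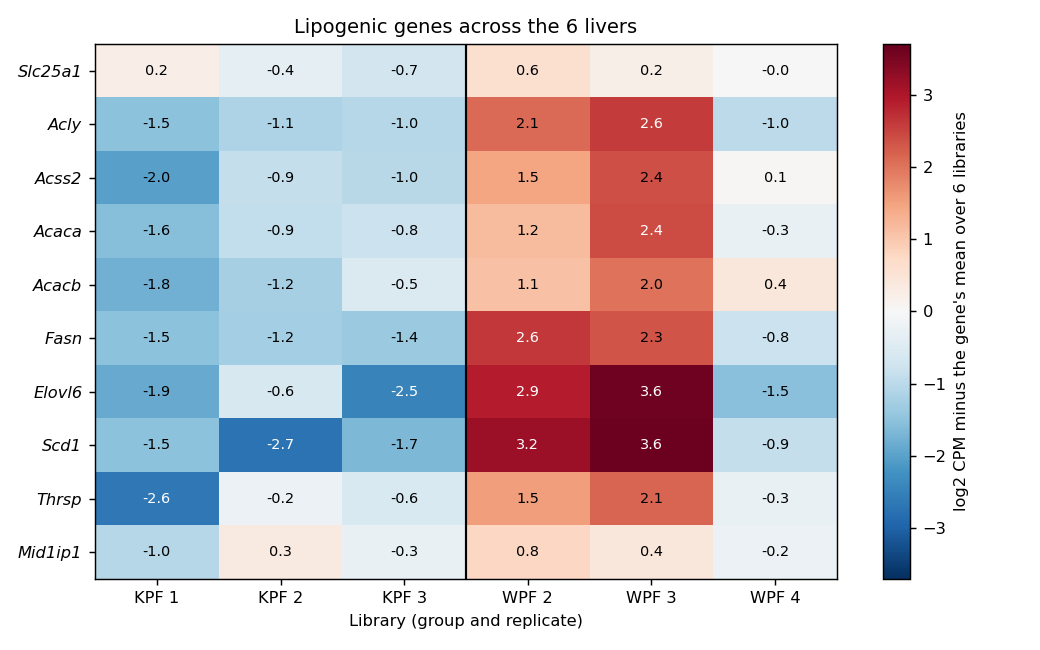
Deviation of each library's log2 CPM from the gene's own mean over the 6 libraries, for the 10 lipogenic genes (rows) and the KPF and WPF libraries (columns, split by the vertical line). WPF 2 and WPF 3 are above the mean for all 10 genes, while in KPF only *Slc25a1* in KPF 1 and *Mid1ip1* in KPF 2 are above it.

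Across the 6 livers, the lipogenic genes formed 45 pairs. Their Pearson correlations of log2 CPM ranged from 0.257 to 0.987 with a median of 0.891. Among the 8 genes called lower, the 28 pairwise correlations ranged from 0.803 to 0.987 with a median of 0.932. These 8 were called in the same libraries, so a shared group difference is built into their correlations. The pairs with *Slc25a1* ranged from 0.257 to 0.722 and those with *Mid1ip1* from 0.257 to 0.912, the highest being with its relative *Thrsp*. These values describe 6 libraries that fall into 2 groups with WPF 4 apart from its own, and the genes share the libraries and their depth.

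The summed pattern of the 10 genes, the mean of their log2 CPM after centring each, was then compared with every other gene of at least 5 FPKM on average (4747 genes, 6 libraries). The most similar gene was *Me1*, malic enzyme, which supplies NADPH for fatty acid synthesis, with a Pearson correlation of 0.997. It was followed by *Wbp2* (0.996), *Neurl2* (0.995), *Uck1* (0.992), *Pgrmc2* (0.992), *Pklr* (0.989), *Adipor2* (0.986) and *Mtch2* (0.986). The genes with the most opposite pattern were *Trp53inp2* (-0.991), *Tbx3os1* (-0.984), *Qars* (-0.983) and *Trpt1* (-0.981). *Me1* stood at 6.859, 9.199 and 9.799 CPM in the KPF livers, compared with 92.37, 157 and 14.7 CPM in WPF, again with WPF 4 nearest to KPF. *Mlxipl* itself had a correlation of 0.668 with the summed pattern and *Srebf1* one of 0.678.

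Partners of the route provide its substrates and reducing power or activate and process fatty acids. Over all tested genes 3.98% were called lower and 5.83% higher, the background for this list and those that follow. Of 24 listed partners 21 were tested. Of these, 8 were called lower, 0 were called higher and 13 were not called, with a median log2 fold change of -0.46. Those called were *Me1* (-3.35), the pentose phosphate enzymes *G6pdx* (-1.98) and *Pgd* (-1.95), the acetoacetyl-CoA synthetase *Aacs* (-1.84), the acyl-CoA synthetases *Acsl5* (-1.25) and *Acsl3* (-1.09), citrate synthase *Cs* (-1.07) and pyruvate carboxylase *Pcx* (-0.91), none with an adjusted p under 0.415. The groups did not overlap for *Me1*, *Aacs*, *Acsl5* and *Pcx*. For *G6pdx*, *Pgd*, *Acsl3* and *Cs* they overlapped, as WPF 4 lay within the KPF range. Of the mitochondrial fatty acid synthesis genes, *Mcat*, *Oxsm* and *Mecr* had log2 fold changes of -0.22, 0.15 and -0.13 and were not called. The elongation-cycle genes *Hacd1*, *Hacd2*, *Hacd3*, *Hsd17b12* and *Tecr*, which serve all elongases, lay between -0.53 and 0.27 and were not called either.

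Close relatives of the lipogenic genes mostly had small differences. Of 12 listed, 6 were tested, and only *Elovl2*, an elongase of polyunsaturated fatty acids, was called lower, at a log2 fold change of -0.93 (SE 0.36). Its groups overlapped, with KPF 3 at 222.7 and WPF 4 at 213.7 CPM. *Elovl5*, another elongase of polyunsaturated fatty acids, had a larger estimate of -1.47 (SE 0.70, unadjusted p = 0.0703, edgeR) and was not called. The other mitochondrial carriers *Slc25a10*, *Slc25a11* and *Slc25a20* had log2 fold changes of 0.33, 0.32 and 0.41 and were not called. The desaturase relatives *Scd2*, *Scd3* and *Scd4* were below the filter in these livers, at 4.51 CPM or less in all 6.

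Most regulators of lipogenesis were not called. Of 24 listed 23 were tested, and 2 were called lower: *Pnpla3*, a lipid droplet protein (log2 fold change -4.05, SE 0.92, unadjusted p = 0.00253, adjusted p = 0.415, edgeR), and *Insig1*, which retains SREBP in the endoplasmic reticulum (-0.85, SE 0.29). *Pnpla3* stood at 1.238, 1.415 and 9.319 CPM in the KPF livers, compared with 87.1, 91.19 and 20.44 CPM in WPF, without overlap. *Srebf1* was counted at 21.43, 115.7 and 82.52 CPM in the KPF livers, compared with 173.9, 143.5 and 131.9 CPM in WPF, so that the groups did not overlap, and with a log2 fold change of -1.03 (SE 0.54, unadjusted p = 0.0929, edgeR) it was not called. *Mlx*, the partner of ChREBP, and *Nr1h3*, the gene of LXRα, had log2 fold changes of -0.01 and 0.48 and were not called.

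The list of other ChREBP targets held genes outside fatty acid synthesis, many of them of glycolysis and fructose use. All 11 listed genes were tested, and 4 were called lower and 0 higher, compared with 3.98% and 5.83% of all tested genes. Their median log2 fold change was -1.53. *Pklr*, liver pyruvate kinase, stood at 11.15, 18.31 and 11.91 CPM in the KPF livers, compared with 148.8, 137 and 24.54 CPM in WPF (log2 fold change -2.91, SE 0.64), without overlap. *Khk*, ketohexokinase (-1.91), *Slc2a2*, the glucose transporter GLUT2 (-1.61), and *Tkfc*, triokinase (-1.53), were the others called. The groups did not overlap for *Slc2a2* but did for *Khk* and *Tkfc*. For these WPF 4, at 82.45 and 142.4 CPM, lay inside the KPF ranges of 60.43 to 134 and 125.4 to 257.5 CPM. *Txnip*, although often used as a readout of ChREBP, had a log2 fold change of 0.33 (SE 0.39) and was not called.

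**Figure D5:**
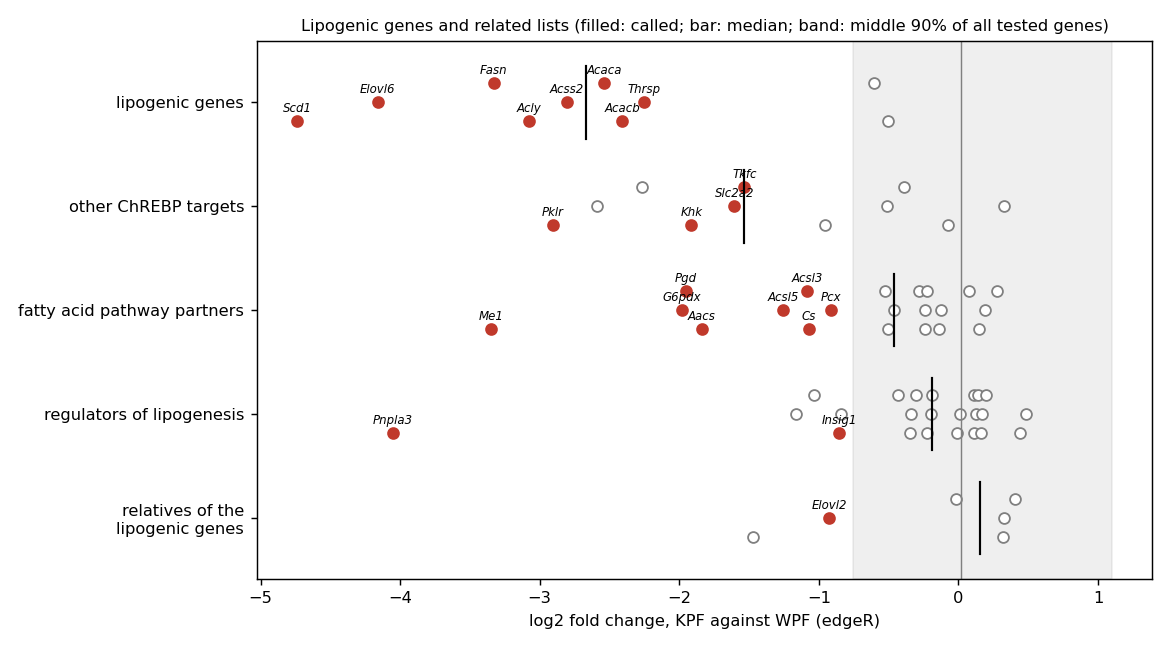
Log2 fold change of KPF against WPF from edgeR for the lipogenic genes and 4 related lists, with filled points for called genes, open points for those not called and a bar at each list's median. The grey band spans the middle 90% of all tested genes, from -0.75 to 1.1, and the 8 called lipogenic genes lie to the left of it.

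The livers also differed in the levels of circadian clock genes. The clock gene *Arntl* was at 26.23, 20.91 and 30.84 CPM in KPF 3, WPF 2 and WPF 3 and at 2.381, 1.061 and 1.464 CPM in KPF 1, KPF 2 and WPF 4, and *Dbp*, which peaks at the opposite phase, was at 5.86, 1.987 and 1.546 CPM in the first set and at 38.29, 205.5 and 284.6 CPM in the second. *Per2* did not follow this split, as it was at 106.5 CPM in WPF 3 and at 89.92 CPM in KPF 1. Of the 12 clock genes tested, 0 were called between the groups, as each set held libraries of both. Among the libraries with *Arntl* above 20 CPM, KPF 3, the only KPF library of the set, was below WPF 2 and WPF 3 for all 10 lipogenic genes, compared with 38.3% of all tested genes, by 1.62-fold (*Mid1ip1*) to 42.1-fold (*Elovl6*). Among the other 3, KPF 1 and KPF 2 were both below WPF 4 for 6 genes, compared with 35.5% of all tested genes, with gaps from 1.12-fold (*Acly*) to 3.13-fold (*Acacb*), whereas *Slc25a1*, *Elovl6*, *Thrsp* and *Mid1ip1* overlapped. WPF 2 and WPF 3 were above all KPF libraries for 9 of the 10 genes without any split. The order in the first set was thus largely given beforehand. With so few libraries in each set, these values cannot show the part of the clock in the result. The sources used here do not give the time of day at which livers were taken, and its part in the result was not tested.

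Among genes of the fed and fasted state, 10 of 12 were tested, of which *Igfbp1* was called lower (log2 fold change -2.46, SE 0.73) and *Pck1*, the gluconeogenic enzyme, higher (1.85, SE 0.75). *Igfbp1* was at 12.59 CPM in WPF 4, inside the KPF range of 8.403 to 17.1 CPM. *Pck1* was at 1721 CPM in KPF 2 and between 129.3 and 321.8 CPM in the other 5 livers, so that KPF 2 stood apart from the other KPF libraries too. The feeding state at collection was not tested for its part in the result.

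Markers of other cells were examined because adipose tissue also makes fatty acids. Of 8 adipocyte markers *Lep* was at 0 in all libraries and *Adipoq* at 1.24 CPM or less, 4 were tested, and *Cfd* and *Lipe* were called higher in KPF. *Cfd* was at 4.191, 17.25 and 1.249 CPM in KPF and at 0.1405 CPM or less in WPF. *Plin1* and *Retn*, below the filter at 1.061 and 3.804 CPM or less, were also higher in every KPF library than in any WPF library. *Adipoq*, *Car3*, *Lipe* and *Adrb3* overlapped between the groups. The summed level of the 8 was 116 to 781.2 FPKM in KPF and 233.8 to 598.9 in WPF, most of it from *Car3*, which hepatocytes also express. Stellate cell and fibroblast markers summed to 16.42 to 36.58 FPKM in KPF and 9.54 to 16.3 in WPF. Of these markers 3 of 6 were called higher (*Col1a1*, *Col3a1* and *Reln*), compared with 5.83% of all tested genes. Of the remaining marker lists, 1 of 5 endothelial genes (*Pecam1*) was called higher, 0 of 5 Kupffer cell genes and 0 of 1 tested cholangiocyte gene were called, and the 3 trophoblast and decidua genes were at 0 in all libraries. The mitochondrial transcripts took 33.2% to 35% of the reads in KPF and 18.7% to 29.1% in WPF, with the lowest share in WPF 4, and the part of these differences in the result was not tested.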

How the data were processed

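Poly(A) RNA of liver from 3 KPF and 3 WPF samples was sequenced. According to the submitters' processing notes, cutadapt 1.9.1, HISAT2 2.2.1 and HTSeq 0.6.1 were used with build GRCm39. For every gene the authors deposited a raw read count and an FPKM value, and the FPKM values equal the count divided by exonic length and library total within 0.0051 for 100% of entries. Of 56691 gene IDs 52073 were matched to a symbol.

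The counts were tested with edgeR 4.0.16 in R 4.3.3 (TMM, quasi-likelihood test, group as the only term) over the 10866 genes whose FPKM averaged at least 1, with Benjamini-Hochberg adjustment over all of them. The fit was tested on simulated data. Values per library are TMM-normalized CPM. Alternatives were DESeq2 1.42.0, limma 3.58.1 on log2 of the deposited FPKM plus 1 or 0.1, other scalings and filters, each library left out in turn, and the replicate number as a block. Strand of the counting is not given in the sources used here, so reads of overlapping antisense genes cannot be told apart.

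The 10 genes and the lists were chosen with earlier results of these data known. Named genes were the 10, *Mlxipl*, called members of each list with up to 4 others, and the 8 most and 4 least similar genes by correlation. Further genes named for a property of the libraries (*Arntl*, *Dbp*, *Txnip*, *Lep*, *Adipoq*, *Car3* and similar) were chosen after their values were seen. The listed clock symbol *Bmal1* was matched under its older symbol *Arntl*.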

Additional observations from a re-analysis of the deposited data

How the results depend on the processing

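Over 15 alternatives, all 10 lipogenic genes kept a log2 fold change below 0, and 145 of 150 calls of single genes were as in the full set. The number called lower was 7 to 9, where 2.26% to 6.71% of all tested genes were called lower. The exceptions were *Slc25a1*, called without KPF 1 (-0.80), with the replicate block (-0.93) and without KPF 1 and WPF 4 together (-0.93, a setting chosen after seeing the data), *Mid1ip1*, called without KPF 2 (-0.997), and *Thrsp*, lost without WPF 3 (-1.71). Of the 10 genes, 8 had an adjusted p under 0.05 without the filter and 8 with DESeq2, and 0 to 3 with a library left out. Genes with an adjusted p under 0.05 over the whole table numbered 286 without the filter, 156 with DESeq2 and 0 to 5 with a library left out. Genes called lower, 433 in the full set, numbered 729 with library totals, 910 without the filter, 205 with a mean FPKM of at least 5, 700 with limma on log2(FPKM + 0.1) and 246 to 709 with a library left out. Genes called higher, 634 in the full set, numbered 371, 1576, 255 and 288 in the same order, 237 with limma on log2(FPKM + 1) and 324 to 910 with a library left out. The KPF libraries were all below the WPF libraries for 6 to 9 of the genes with a library left out, compared with 11.2% to 17.5% of all tested genes, and for 10 without KPF 1 and WPF 4, compared with 21.6%. Library totals moved the median log2 fold change of all genes from 0.02 to -0.12 and that of the 10 genes from -2.67 to -2.79. The cause of these differences was not tested.

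Replicate numbers 2 and 3 occur in both groups, but the deviations of same-numbered libraries from their group means had correlations of 0.03 and 0.0003, so the numbers are not taken to pair samples. With the replicate block, 9 of the 10 genes were called lower, with *Slc25a1* added (-0.93). The median log2 fold change was -2.76, and 551 genes were called lower and 680 higher. Replicates 1 and 4 each occur in 1 group only, so in this fit the group difference rests on replicates 2 and 3. The block is thus no check apart from leaving out KPF 1 and WPF 4 together. With 3 libraries a group and WPF 4 far from its own, differences of the size seen for *Slc25a1* and *Mid1ip1* were not resolved, and *Mid1ip1* rests on 77 to 300 reads.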

Other observations

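Several genes outside the fatty acid route followed the lipogenic genes across the livers. *Adipor2*, an adiponectin receptor, stood at 55.35, 68.29 and 73.01 CPM in KPF 1, 2 and 3, compared with 161.3, 158 and 87.43 CPM in WPF 2, 3 and 4, and was called lower in KPF (log2 fold change -1.05, SE 0.30, edgeR). *Pgrmc2*, a membrane-bound haem-binding protein of the progesterone receptor component family, stood at 25.15, 26.71 and 29.01 CPM in the KPF livers, compared with 48.91, 50.44 and 31.04 CPM in WPF, and was called lower as well (-0.69, SE 0.24). *Neurl2* (-1.80, SE 0.45), *Uck1* (-1.30, SE 0.39) and *Mtch2* (-0.67, SE 0.24) were also called lower, whereas *Wbp2* (-0.44, SE 0.21) was not. All of these had an adjusted p of 0.43 or more in edgeR's quasi-likelihood test, and they were picked for their likeness in the same 6 libraries, so that their direction is no separate evidence.

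Among the genes of opposite pattern, *Tbx3os1*, a non-coding transcript next to *Tbx3*, stood at 186.1, 98.89 and 97.13 CPM in the KPF livers, compared with 18.66, 20.23 and 72.03 CPM in WPF and was called higher (1.78, SE 0.58). *Trpt1* was called higher too (0.70, SE 0.28), and *Trp53inp2* (0.46, SE 0.26) and *Qars* (0.43, SE 0.21) were not. In all 4, WPF 4 was the WPF library closest to the KPF mean.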
